A study of Rattus norvegicus and Mus musculus with 12 samples.

Results

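The genes that encode the subunits of the proteasome were compared between cultured rat and mouse chondrocytes with and without interleukin-1β (IL-1β). Members were all genes whose symbol is Psm, a letter from a to g and a number, which gave 47 of 19687 rat genes and 48 of 28603 mouse genes. RNA was sequenced from articular chondrocytes of newborn animals at their first passage, with 3 libraries in each of 4 groups. The rat control (RC) and rat model (RM) groups came from SD rats, and the mouse control (MC) and mouse model (MM) groups came from C57BL/6 mice according to the methods. The strain labels of the mouse libraries run from C57BL/6 to C57BL/9. The RM and MM cells had received 20 ng/ml IL-1β for 24 h as an in vitro stand-in for osteoarthritis, and the RC and MC cells had not. Comparing model with control in each species, and then the 2 responses with each other, addresses how far chondrocytes of the species differ as such a model.

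The proteasome degrades proteins that carry ubiquitin chains. Its core particle is a barrel of α and β rings, in which the products of Psmb5, Psmb6 and Psmb7 hold the catalytic sites, and its 19S cap of ATPases (Psmc genes) and non-ATPase subunits (Psmd genes) binds, unfolds and feeds in the substrates. Interferons are known to induce Psmb8, Psmb9 and Psmb10, whose products replace the constitutive catalytic subunits in the immunoproteasome, together with the activator subunits Psme1 and Psme2.

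Total counts ranged from 20169272 to 25903459 per library in rat and from 16841580 to 20048322 in mouse. Members held 0.472% to 0.513% of the counts in the rat libraries, 0.378% to 0.389% in the MC libraries and 0.345% to 0.349% in the MM libraries. One rat control library, RC1, stood apart from the rest. The mean squared difference per gene, in units of counting error, was 28.1 between RC1 and RC2 and 16.1 between RC1 and RC3. The same measure was 12.4 between RC2 and RC3, 6.04 to 6.59 among the RM libraries and 1.89 to 2.49 within the mouse groups. The biological coefficient of variation was 0.106 in rat and 0.0318 in mouse, so a small difference passed the test more easily in mouse.

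Levels are given as FPKM (counts scaled to exon length and library total) and differences as log2 model minus control from edgeR, with library totals scaled by TMM factors. Those factors were 1.10 in the MC libraries and 0.905 to 0.911 in the MM libraries, so they mattered in mouse. With library size alone, the median difference of all mouse genes moved from -0.02 to -0.29 and that of the members from -0.08 to -0.36, and with upper-quartile factors these medians were -0.15 and -0.21. Members lay at -0.06 relative to the median of all mouse genes under each of these scalings. A change of scaling shifts all genes by nearly the same amount, so this agreement was fixed in advance. Fits by limma on log2(FPKM + 1) and log2(FPKM + 0.1) gave -0.14 and -0.08 instead. FPKM carry no TMM factor. A mouse gene with a fitted difference slightly above 0 can therefore have a lower FPKM in the model group.

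Both species expressed the cartilage genes that define chondrocytes, and all 10 chondrocyte markers tested were lower with IL-1β in each species. Of all genes tested, 16.8% were called lower in rat and 37.6% in mouse. Col2a1, the main collagen of cartilage, fell by 1.60 on the log2 scale in rat (SE 0.074, adjusted p = 1.44e-07) and by 3.57 in mouse (SE 0.0247, adjusted p = 7.4e-75). Col9a1, a minor collagen of cartilage, fell by 1.31 in rat (adjusted p = 1.23e-07) and fell by 4.21 in mouse (adjusted p = 4.96e-65), and Cnmd, chondromodulin, fell by 1.41 (adjusted p = 4.51e-07) and fell by 5.07 (adjusted p = 3.57e-64). The summed FPKM of the 10 markers was 4245 to 4942 in RC, 1514 to 1561 in RM, 2180 to 2232 in MC and 181 to 195 in MM libraries. In bulk RNA, fewer cells of a type and less RNA per cell cannot be told apart.

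Few proteasome genes passed the test in rat. Of the 47 rat members, 44 had enough counts to be tested, and Psma8, Psmb11 and Psme1 did not. The rat table lists Psma3 as Psma3l, a symbol outside the rule, with a difference of 0.22 (adjusted p = 0.115). At an adjusted p under 0.05, 2 of 44 were higher, 1 was lower and 41 were not called, where 18.3% of all 13303 rat genes tested were called higher and 16.8% lower. With upper-quartile factors the split was 1 higher and 7 lower, against 15.4% and 21.5% of all genes. Without RC1 it was 8 higher and 11 lower, against 24.1% and 22.4% of all genes. Without any one of RC2, RC3, RM1, RM2 and RM3 it was 1 higher and 0 lower by edgeR. In those fits 12.9% to 14.5% of all genes were called higher and 11.6% to 14% lower. At an unadjusted p under 0.05 with all 6 libraries, 5 members were higher and 6 lower. The share of all genes at that threshold is not given. Counts at that threshold, here and for the classes and lists below, are therefore not read as a result. DESeq2 called 4 members higher and 3 lower, against 18.2% and 16.5% of all genes. The median difference of the members was -0.01, and that of all rat genes tested was 0.01.

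More members passed the test in mouse, in both directions, as more of all genes did. Of the 48 mouse members, 47 were tested, and Psmb11 was not. Among them 15 were higher, 21 were lower and 11 were not called, where 37.4% of all 14774 mouse genes tested were called higher and 37.6% lower. The split was 6 higher and 35 lower with library size alone, where 25% and 54.7% of all genes were called, and 9 higher and 29 lower with upper-quartile factors, where 30.7% and 45.7% were. With DESeq2 it was 14 higher and 18 lower, where 35.7% and 34.5% were. Each count of calls in a class or list below stands against these shares of all genes, under the same scaling, and is no result about that class by itself. The immunoproteasome subunits, Psme2, Psma8 and the assembly factor Psmg2 had the lowest fitted differences, and the cap subunit Psmd8 and the assembly chaperones Psmd10 and Psmd5 had the highest.

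The study's own criteria for a differentially expressed gene set a fold change of 0.85, a p of 0.05 and an FPKM of 1 in some library. They were read here as a log2 difference of 0.85 or more in either direction and p without adjustment, which is an interpretation. By these criteria edgeR counted 0 rat members, against 4.64% of all rat genes tested on the higher side and 3.9% on the lower side, and DESeq2 also counted 0. In mouse they took in 3 members on the higher side (Psmd8, Psmd10 and Psmd5) and 3 on the lower side (Psma8, Psmb8 and Psmb10), against 12.6% and 13% of all mouse genes tested. Psmb9 missed them because its FPKM stayed under 1 in each mouse library. With library size alone the sides held 2 and 5 members. The share of all mouse genes past the criteria at that scaling is not given, so those counts are not read as a result.

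The difference between species was tested directly, as the mouse log2 difference minus the rat one, on 10892 genes shared by symbol. Of the 44 members in that test, 11 had a more positive difference in mouse, 15 had a more positive difference in rat and 18 were not called. Among all shared genes these calls took 31.5% and 32.4%. With library size alone the split was 3 and 26 (20.1% and 49.5% of all shared genes), and with upper-quartile factors 5 and 19 (28.1% and 36%). The members' shares are read only against these backgrounds, and nothing particular to the proteasome genes is called from them.

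**Figure D1:**
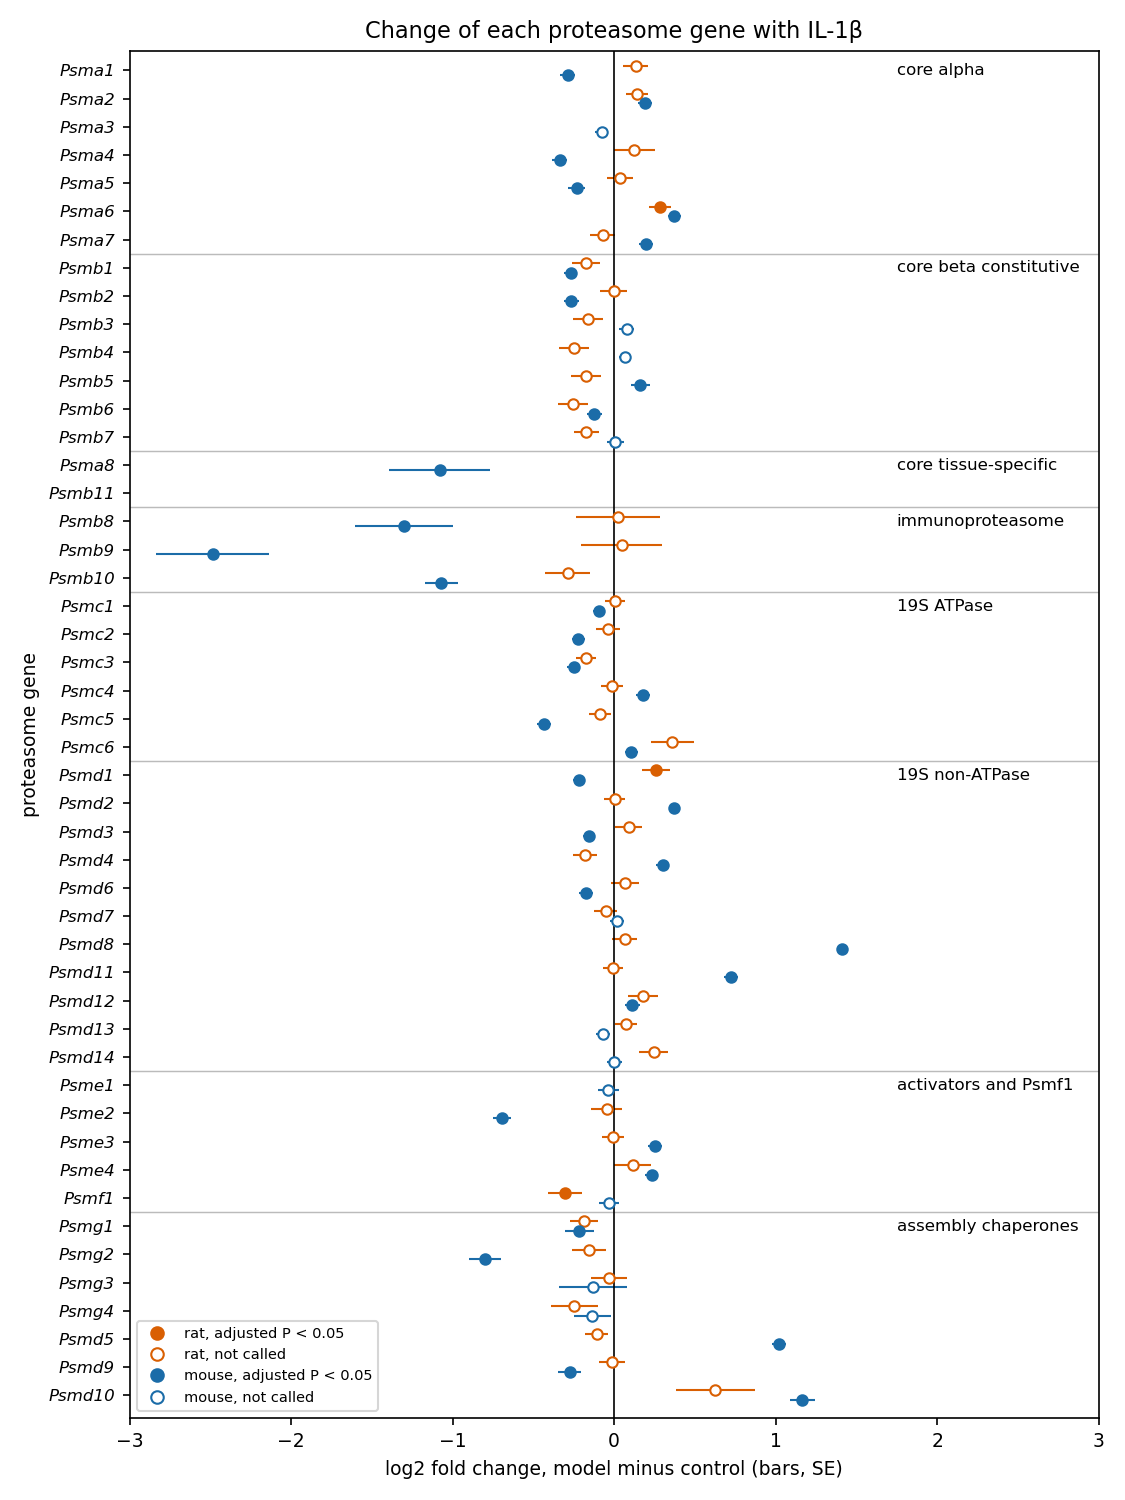
Fitted log2 difference between model and control (x axis) for each tested proteasome gene (y axis, by class) in rat and mouse, with bars of 1 standard error. The 3 immunoproteasome genes lie between -2.48 and -1.07 in mouse and between -0.29 and 0.05 in rat, and Psmd8 lies at 1.41 in mouse and 0.06 in rat.

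All 3 immunoproteasome genes fell in mouse, and none of them passed the test in rat. EdgeR and DESeq2 each called 0 of 3 in rat, and 0 of 3 had an unadjusted p under 0.05. Rat Psmb10 was called lower without RC1, at -0.41 (adjusted p = 0.0219), and was at -0.16 (adjusted p = 0.426) without RC3. Summed FPKM of the 3 genes was 13.6 ± 0.382 (SD, n = 3) in MC and 5.12 ± 0.698 in MM, and 13 ± 1.58 in RC and 11.2 ± 0.0976 in RM. Psmb10 made up most of that sum in each group.

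Psmb10 (ENSMUSG00000031897), which replaces Psmb7, had FPKM of 12, 12 and 11.9 in the MC libraries and 4.45, 4.32 and 5.40 in the MM libraries. Each MM library lay under each MC library, as in 36 of the 47 tested mouse members. The share of all mouse genes with that order is not given, so this count is no result about the members. The fitted difference was -1.07 (SE 0.1, adjusted p = 6.98e-15), a fall by a factor of 2.10. In rat, Psmb10 (ENSRNOG00000019494) had FPKM of 8.99, 10.4 and 12.4 in RC and 9.36, 8.33 and 8.59 in RM. The rat groups overlapped, with a fitted difference of -0.29 (SE 0.141, adjusted p = 0.138). The mouse difference was lower than the rat one by the direct test (-0.78, SE 0.17, adjusted p = 0.000698).

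Psmb9 (ENSMUSG00000096727), which replaces Psmb6 in the immunoproteasome, was a scarce transcript in mouse with the lowest fitted difference of the members. Its FPKM was 0.671, 0.860 and 0.548 in MC and 0.123, 0.112 and 0.0625 in MM, from 131 counts in the 3 MC libraries and 21 counts in the 3 MM libraries. The groups did not overlap. The fitted difference was -2.48 (SE 0.35, adjusted p = 4.32e-09), a fall by a factor of 5.59. The rat gene (ENSRNOG00000000459) had FPKM of 1.72, 2.21 and 1.34 in RC and 1.34, 2.11 and 2.03 in RM. Those groups overlapped, with a difference of 0.05 (SE 0.253, adjusted p = 0.912) that was -0.02 with upper-quartile factors. Between species the difference was -2.54 (SE 0.44, adjusted p = 8.37e-05).

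Psmb8 (ENSMUSG00000024338), which replaces Psmb5, was equally scarce, with 126 counts in MC and 46 in MM. Its FPKM was 0.939, 1.04 and 0.692 in MC and 0.219, 0.224 and 0.460 in MM. MM3 was the highest of the model libraries and still lay under each control library. The fitted difference was -1.30 (SE 0.305, adjusted p = 0.000128), a fall by a factor of 2.47. In rat (ENSRNOG00000000456) FPKM was 0.544, 0.584 and 0.688 in RC and 0.624, 0.710 and 0.525 in RM, with a difference of 0.02 (SE 0.26, adjusted p = 0.956) that was -0.04 with upper-quartile factors. The difference between species was -1.33 (SE 0.403, adjusted p = 0.00821).

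**Figure D2:**
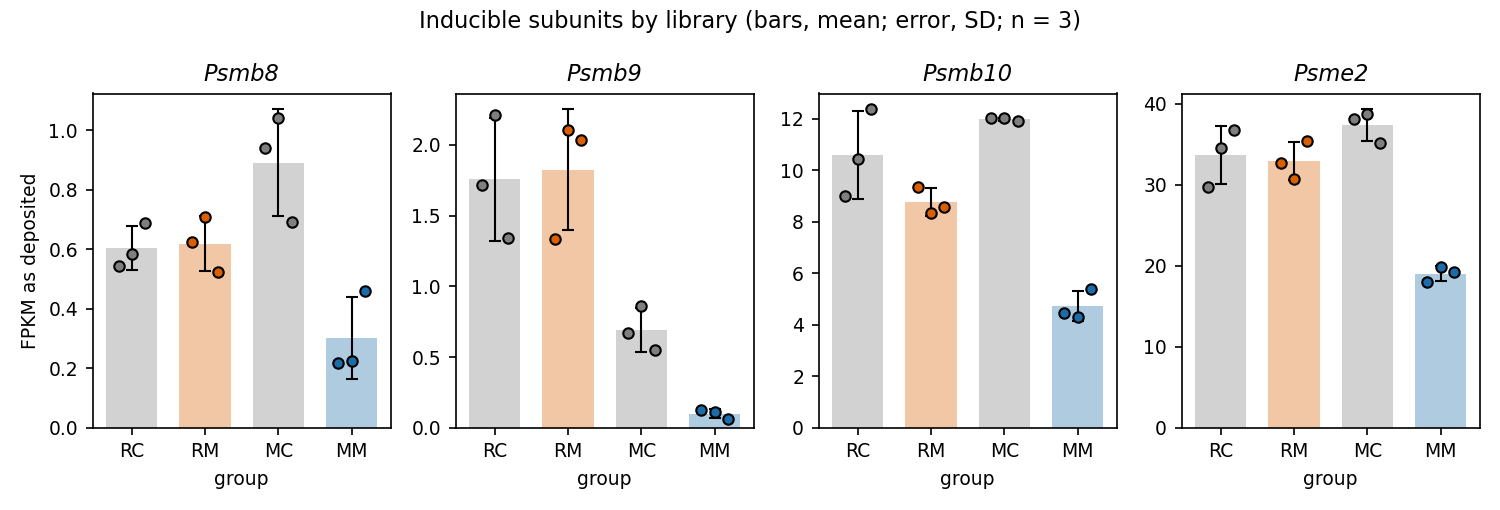
FPKM (y axis) of Psmb8, Psmb9, Psmb10 and Psme2 in each library of the 4 groups (x axis), with points for libraries and bars for the mean and SD of 3 libraries. In mouse each model library lies under each control library for these 4 genes, as for Psmb10 at 4.32 to 5.40 against 11.9 to 12. This order of FPKM, which carry no TMM factor, held for 36 of the 47 tested mouse members. The share of all mouse genes with it is not given, so the count is not read as a result. In rat the groups overlap.

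The ratio of an inducible catalytic subunit to its constitutive counterpart compares 2 genes in the same library and does not depend on scaling between libraries. Ratios of FPKM are given as a description, without a test. Psmb10 stood at 68.9% ± 3.57 (SD, n = 3) of Psmb7 in MC and at 32.8% ± 4.17 in MM. The rat ratio was already lower in control cells, at 20.5% ± 1.72 in RC and 18.9% ± 0.867 in RM. FPKM divide by the exon length in each species' annotation, so the ratios of the species also depend on those lengths. The lengths implied by the FPKM were 3421 bases in mouse and 1696 in rat for Psmb7. For Psmb10 they were 1705 and 996 bases. Psmb8 was at 1.94% ± 0.402 of Psmb5 in MC and 0.708% ± 0.312 in MM, beside 1.94% ± 0.133 in RC and 2.24% ± 0.470 in RM. Psmb9 was at 1.50% ± 0.244 of Psmb6 in MC and 0.284% ± 0.0862 in MM, beside 1.27% ± 0.392 in RC and 1.53% ± 0.357 in RM. Control cells of both species thus had little Psmb8 and Psmb9 transcript beside the constitutive genes, and Psmb10 was the inducible subunit with an appreciable level.

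**Figure D3:**
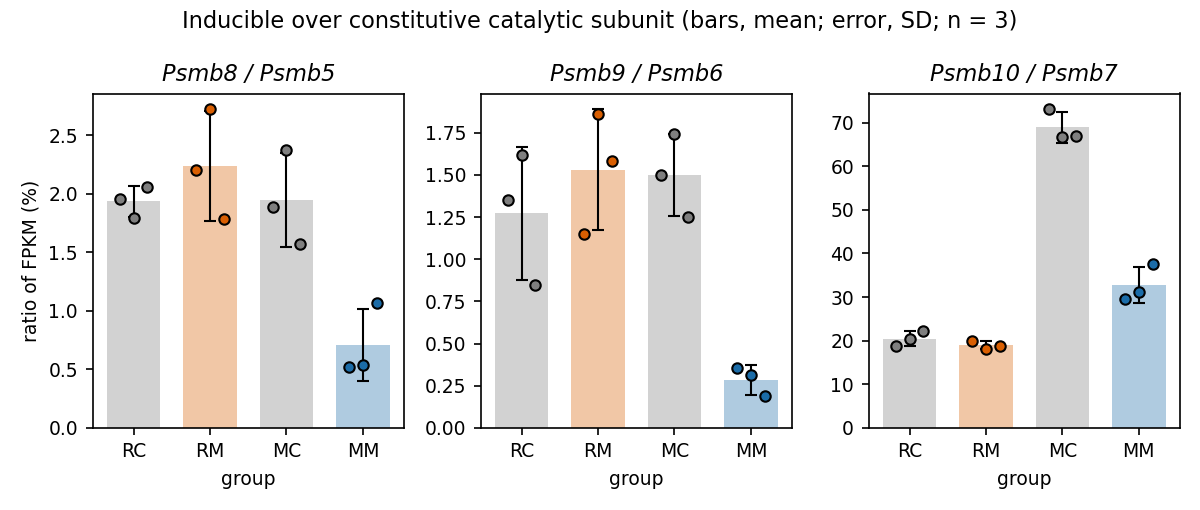
FPKM of Psmb8, Psmb9 and Psmb10 as a percentage of Psmb5, Psmb6 and Psmb7 (y axis) in each library of the 4 groups (x axis), with points for libraries and bars for mean and SD. The ratio of Psmb10 to Psmb7 averages 68.9% in MC, 32.8% in MM, 20.5% in RC and 18.9% in RM.

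Psmb8 and Psmb9 lie in the major histocompatibility complex beside the genes of the peptide transporter TAP. On the mouse GRCm38 build, Psmb9 covers chr17:34181987-34187764 on the minus strand and Tap1 covers chr17:34187553-34197225 on the plus strand. Their starts are 211 bases apart on opposite strands, and their exons share 212 bases, which is 5.79% of the Psmb9 exons. Psmb8 follows at chr17:34197721-34201454 and Tap2 at chr17:34203527-34216321, both on the plus strand. Gaps of 495 bases to Tap1 and 2072 bases to Tap2 flank Psmb8. An antisense gene, Gm20496, covers 14.7% of the 3381 exon bases of Psmb8 in GENCODE M21, and the strand setting of the counting was not known. The FPKM imply that 2736 bases of Psmb8 were counted, so this share describes the annotation and not the exons counted. The exons of 13 of the 48 mouse members overlap those of another gene, over more than 5% in 8 of them. On the opposite strand the overlap is 25.5% for Psmd9, 11.8% for Psmb7, 10.1% for Psmd13 and 8.25% for Psmc3. The doubt about the strand holds for these as well, and for Tap2, which overlaps Gm15821 over 14.1% and Gm20496 over 4.36%. Psmb10 lies apart, at chr8:105935735-105938444 on the minus strand.

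Both transporter genes fell in mouse along with their neighbours. Tap1, which carries peptides into the endoplasmic reticulum with Tap2, had an FPKM of 5.05 ± 0.34 (SD, n = 3) in MC and 2.02 ± 0.18 in MM and a difference of -1.04 (adjusted p = 1.13e-16). Tap2 went from 4.59 ± 0.42 to 1.50 ± 0.13, a difference of -1.33 (adjusted p = 1.59e-16). Neither passed the test in rat, with -0.03 for Tap1 (adjusted p = 0.855) and 0.27 for Tap2 (adjusted p = 0.518). The rat Tap2 value was 0.01 without RC3 and 0.52 without RC1. The direct test gave -1.01 for Tap1 (adjusted p = 1.01e-05) and -1.58 for Tap2 (adjusted p = 0.000116). Not all of antigen presentation moved that way. B2m, the light chain of class I molecules, rose by 0.74 in mouse (adjusted p = 8.83e-30) and by 0.30 in rat (adjusted p = 0.0203), and the rat call was lost without RM1 (adjusted p = 0.0662) or RM2 (adjusted p = 0.0809). Tapbp, which loads peptides onto class I molecules, rose by 0.90 in mouse (adjusted p = 7.31e-29), and in rat its difference was 0.19 (adjusted p = 0.171), or 0.29 (adjusted p = 0.0462) without RC2 and 0.07 (adjusted p = 0.489) without RC1. Nlrc5, a transactivator of class I genes, rose by 0.78 in mouse (adjusted p = 1.98e-08), and in rat it was at -0.43 (adjusted p = 0.308). Of the 9 antigen processing genes tested, 3 were higher and 4 lower in mouse (3 and 6 with library size alone), and 1 was higher and 1 lower in rat, where all genes tested gave 37.4% and 37.6% in mouse and 18.3% and 16.8% in rat.

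Psme1 and Psme2 encode the subunits of PA28αβ, the interferon-inducible activator that opens the core particle, and only Psme2 of the pair passed the test in mouse with TMM scaling. Psme2 (ENSMUSG00000079197) had FPKM of 38.2, 38.8 and 35.2 in MC and 18.0, 19.8 and 19.2 in MM, without overlap. Its difference was -0.70 (SE 0.0554, adjusted p = 9.4e-18). The rat gene (ENSRNOG00000019246) had FPKM of 29.7, 34.5 and 36.7 in RC and 32.8, 30.7 and 35.4 in RM. Those groups overlapped, at -0.05 (adjusted p = 0.747), and the difference between species was -0.65 (SE 0.115, adjusted p = 0.000104). Mouse Psme1 was at -0.04 (adjusted p = 0.616), and at -0.32 (adjusted p = 1.12e-05) with library size alone. In rat, Psme1 had 1 count in the RC and 1 in the RM libraries in all, so no fold is given. The mouse genes lie on chromosome 14 at chr14:55578123-55581529 (Psme1, plus strand) and chr14:55587441-55591113 (Psme2, minus strand), with 5911 bases between them.

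The other activators moved less in mouse than Psme2 did. Psme3, the nuclear activator PA28γ, was higher in mouse by 0.25 (adjusted p = 7.7e-07) with TMM and at -0.03 with library size alone. Psme4, the activator PA200, was higher by 0.23 (adjusted p = 3.56e-07) with TMM and at -0.05 with library size alone, and in rat it was at 0.12 (adjusted p = 0.472), or at 0.25 (adjusted p = 0.0132) without RC1 and 0.00286 without RC2. Psmf1, the inhibitor PI31, was the member called lower in rat. Its FPKM was 23.7, 30.5 and 29.4 in RC and 21.2, 23.0 and 24.3 in RM, and the groups overlapped through RC1. The rat difference was -0.30 (SE 0.105, adjusted p = 0.0463). It was -0.43 without RC1 and -0.24 without RC2. Without RC2, RC3, RM1, RM2 or RM3 the call was lost, with adjusted p of 0.128, 0.156, 0.168, 0.112 and 0.066. It was also lost with library size alone (adjusted p = 0.0566) and with limma on log2(FPKM + 1) or log2(FPKM + 0.1) (adjusted p = 0.0702 and 0.0667). In mouse Psmf1 was at -0.03 (adjusted p = 0.67), and at -0.31 (adjusted p = 1.32e-05) with library size alone. Of the 5 activator and inhibitor genes tested in mouse, 2 were higher and 1 lower with TMM, 0 and 3 with library size alone and 2 and 3 with upper-quartile factors.

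Promoter sequences of rat from RefSeq (build GRCr8, 250 bases before to 50 after the gene's start) matched 43 symbols of the rule, 42 of them among the 47 rat members, and mouse promoters were not used here. The core of the interferon-stimulated response element, GAAANNGAA on either strand, occurred in 9 of these 43 promoters (20.9%) and in 9.50% of all 27457 promoters. It occurred in Psmb10, Psmb8 and Psme2 and not in Psmb9. The other 6 promoters with it were those of Psma4, Psmb2, Psmb3, Psmd7, Psmd11 and Psmg4, of which Psma4 and Psmb2 were called lower in mouse and Psmd11 higher. In rat, the species of these promoters, none of the 9 genes was called with all 6 libraries. Psmb10 held 3 matches, which began 73, 67 and 17 bases before the start, the first of them overlapping the next. The match in Psme2 began 53 bases before the start, and the one in Psmb8 began 3 bases before it. Psmb10, Psmb8 and Psme2 are shown as the interferon-inducible members that hold the match, each 5′ to 3′ on the gene's strand with the matched bases in capitals. They cover chr19:50743243-50743542 (Psmb10), chr20:4656982-4657281 (Psmb8) and chr15:33052702-33053001 (Psme2), all on the minus strand.
Psmb10: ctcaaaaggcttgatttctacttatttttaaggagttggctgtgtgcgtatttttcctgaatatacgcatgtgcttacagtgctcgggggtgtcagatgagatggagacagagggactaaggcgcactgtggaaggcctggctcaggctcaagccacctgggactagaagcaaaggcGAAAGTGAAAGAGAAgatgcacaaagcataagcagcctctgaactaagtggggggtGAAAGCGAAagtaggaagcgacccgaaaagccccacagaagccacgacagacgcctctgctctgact
Psmb8: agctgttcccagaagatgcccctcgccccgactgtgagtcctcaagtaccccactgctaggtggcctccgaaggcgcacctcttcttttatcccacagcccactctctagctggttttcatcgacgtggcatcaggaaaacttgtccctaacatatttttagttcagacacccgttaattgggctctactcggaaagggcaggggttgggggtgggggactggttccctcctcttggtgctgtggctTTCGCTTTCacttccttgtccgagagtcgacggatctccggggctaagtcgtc
Psme2: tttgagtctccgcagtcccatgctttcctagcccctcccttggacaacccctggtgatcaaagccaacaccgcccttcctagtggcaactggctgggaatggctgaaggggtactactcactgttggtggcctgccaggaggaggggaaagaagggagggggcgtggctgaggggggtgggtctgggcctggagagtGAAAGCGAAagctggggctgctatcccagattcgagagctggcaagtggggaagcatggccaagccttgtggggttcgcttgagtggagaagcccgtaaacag
A match describes the letters only and does not show that a factor binds there. Other motifs searched on both strands were the GAS element TTCNNNGAA, in 4 of 43 member promoters (9.30%) and 8.68% of all, and the antioxidant response element TGACNNNGC, in 8 (18.6%) and 12.2%. CCAAT, the letters of the NF-Y box, occurred in 21 (48.8%) and 37.7%, TGACGTCA in 1 (2.33%) and 1.91%, and the kB motif in 4 (9.30%) and 7.60%.

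The constitutive core subunits showed small differences in mixed directions. Of the 7 mouse α-ring genes, 3 were higher and 3 lower with TMM, 1 and 5 with library size alone, and 1 and 4 with upper-quartile factors. Psma6 was the α subunit called higher in both species. Its FPKM was 77.0, 74.4 and 70.6 in MC and 79.1, 78.1 and 79.6 in MM, with a difference of 0.37 (SE 0.0417, adjusted p = 4.24e-12). In rat it was 103, 96.5 and 104 in RC and 122, 128 and 125 in RM, so the groups did not overlap, with a difference of 0.29 (SE 0.068, adjusted p = 0.00852). The responses were not called different between species (0.09, adjusted p = 0.333), but with library size alone the value was -0.21 and was called (adjusted p = 0.0212). Psma4 was lower in mouse at -0.34 (adjusted p = 3.62e-09) and Psma1 at -0.29 (adjusted p = 1.03e-07). In rat, Psma4 was at 0.12 (adjusted p = 0.482), at 0.25 (adjusted p = 0.036) without RC1 and at -0.02 (adjusted p = 0.884) without RC2, and Psma1 was at 0.13 (adjusted p = 0.21). Psma2 was higher in mouse by 0.19 (adjusted p = 9e-05) with TMM, at -0.09 with library size alone and at 0.05 (adjusted p = 0.246) with upper-quartile factors, and at 0.14 in rat (adjusted p = 0.148).

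Among the 7 constitutive β-ring genes, edgeR called 0 in rat with TMM and the filter, where 0 were higher and 3 lower at an unadjusted p under 0.05 and DESeq2 called 0 higher and 2 lower. Upper-quartile factors called 3 of them lower in rat, no filter called Psmb6 (adjusted p = 0.0463) and Psmb4 (adjusted p = 0.0482), and the replicate block called Psmb6 (adjusted p = 0.0409). Without RC1, Psmb4 was at -0.36 (adjusted p = 0.000472), Psmb6 at -0.34 (adjusted p = 0.00252), Psmb5 at -0.27 (adjusted p = 0.0166), Psmb1 at -0.24 (adjusted p = 0.0168) and Psmb7 at -0.24 (adjusted p = 0.0105). Without RC3 none of these 5 was called, and they were at -0.16, -0.16, -0.12, -0.09 and -0.11 in that order. Psmb5, Psmb6 and Psmb7 are the catalytic genes. In mouse, 1 of the 7 was higher and 3 were lower with TMM, 0 and 6 with library size alone, and 0 and 4 with upper-quartile factors. Psmb1 and Psmb2, which encode structural β subunits, were each lower at -0.27 (adjusted p = 2.38e-08 and 9.34e-07). Psmb5, the chymotrypsin-like subunit, was higher by 0.16 (adjusted p = 0.013) with TMM and at -0.12 with library size alone, and its call was lost with upper-quartile factors (adjusted p = 0.681) and without MC2 (adjusted p = 0.0821) or MC3 (adjusted p = 0.075). Psmb6 was lower at -0.12 (adjusted p = 0.0155), a call lost with DESeq2 (adjusted p = 0.07) and without MC2 (adjusted p = 0.216) or MM3 (adjusted p = 0.107). Psmb7 was at 0.01 (adjusted p = 0.899) with TMM and at -0.27 with library size alone, so the fall of Psmb8, Psmb9 and Psmb10 had no counterpart of that size among the genes they replace.

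Tissue-specific core subunits were scarce or near absent. Psma8, the testis α subunit, had mouse FPKM of 0.515, 0.833 and 1.25 in MC and 0.260, 0.389 and 0.367 in MM, a difference of -1.08 (SE 0.315, adjusted p = 0.00171). That call was lost without MC3, the highest library (-0.72, adjusted p = 0.0717). In rat it had 0 counts in RC and 1 in RM. Psmb11, the thymus β subunit, had 4 counts in MC and 1 in MM, and 6 in RC and 1 in RM, and was not tested in either species.

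Of the 6 ATPase genes of the 19S cap, 2 were higher and 4 lower in mouse with TMM, 0 and 6 with library size alone, and 0 and 4 with upper-quartile factors. As 37.4% and 37.6% of all mouse genes tested were called with TMM, 6 calls among 6 genes do not set the class apart. Psmc5 had the lowest value of them. It had FPKM of 86.9, 81.6 and 78.2 in MC and 49.6, 49.2 and 51.7 in MM, without overlap, and a difference of -0.43 (SE 0.0434, adjusted p = 7.17e-14). In rat Psmc5 was at -0.09 (adjusted p = 0.338), and the difference between species was -0.35 (adjusted p = 0.00114). Psmc3 and Psmc2 were lower in mouse at -0.25 (adjusted p = 8.9e-08) and -0.22 (adjusted p = 2.56e-06). Psmc4 was higher by 0.18 (adjusted p = 0.000189) with TMM, at -0.10 with library size alone and at 0.05 (adjusted p = 0.327) with upper-quartile factors. Psmc6 was higher by 0.11 (adjusted p = 0.0163) with TMM, at -0.17 with library size alone and at -0.03 with upper-quartile factors, and its call was lost without MC1 (adjusted p = 0.056) or MC2 (adjusted p = 0.0706). In rat edgeR called 0 of the 6 with TMM and the filter. At an unadjusted p under 0.05, 1 was higher and 1 lower, and DESeq2 called 1 higher and 0 lower. Rat Psmc6 was at 0.36 (adjusted p = 0.0591), and edgeR called it with the replicate block (0.38, adjusted p = 0.0345) and without the filter (adjusted p = 0.0241). Rat Psmc3 was at -0.18 (adjusted p = 0.0512), and was called with upper-quartile factors (-0.24, adjusted p = 0.0183). Without RC1, Psmc6 and Psmc3 were at 0.51 (adjusted p = 0.000331) and -0.23 (adjusted p = 0.00739). The values nearest to 0 on leaving out 1 library were 0.22 for Psmc6 without RC2 and -0.15 for Psmc3 without RC3.

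The 11 non-ATPase genes of the cap held the highest single value in mouse, that of Psmd8. In mouse, 5 were higher and 3 lower with TMM, 3 and 7 with library size alone, and 4 and 6 with upper-quartile factors. Psmd8 (ENSMUSG00000030591, GRCm38 chr7:29174188-29180701, minus strand), a lid subunit, had FPKM of 55.5, 53.2 and 56.6 in MC and 120, 120 and 122 in MM. The groups were far apart. Its difference was 1.41 (SE 0.0323, adjusted p = 1.49e-45), a rise by a factor of 2.66. The rat gene (ENSRNOG00000037580) had FPKM of 62.9, 68.3 and 75.3 in RC and 72.4, 72.4 and 73.6 in RM. Those groups overlapped, at 0.06 (SE 0.0793, adjusted p = 0.561), a value that was -0.01 without RC1 and 0.13 without RC3. The difference between species was 1.34 (SE 0.0819, adjusted p = 2.61e-10).

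Psmd11 (ENSMUSG00000017428, GRCm38 chr11:80428615-80473248, plus strand), another lid subunit, rose in mouse as well. Its FPKM was 11.0, 10.8 and 11.3 in MC and 15.2, 15.1 and 14.8 in MM, without overlap. The difference was 0.73 (SE 0.0426, adjusted p = 8.33e-24), a rise by a factor of 1.65. Rat Psmd11 had FPKM of 37.7, 38.2 and 39.2 in RC and 38.0, 38.5 and 39.2 in RM, a difference of -0.01 (adjusted p = 0.943) that was 0.01 with library size alone. The species differed by 0.73 (SE 0.0685, adjusted p = 6.68e-08). Psmd2, a scaffold of the base, rose in mouse by 0.37 (adjusted p = 3.92e-17), and its difference between species of 0.37 (adjusted p = 0.000184) was 0.07 (adjusted p = 0.349) with library size alone. Psmd4, a ubiquitin receptor, was higher in mouse by 0.30 (adjusted p = 1.35e-09), and at 0.02 (adjusted p = 0.618) with library size alone. In rat it was at -0.18 (adjusted p = 0.0871), and it was called lower without RC1 (-0.23, adjusted p = 0.0165) and with upper-quartile factors (-0.25, adjusted p = 0.0312), while it was at -0.12 without RC3. Its difference between species of 0.48 (adjusted p = 6.84e-05) was 0.19 (adjusted p = 0.0539) with library size alone.

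Psmd1, the other large scaffold of the base, was called in opposite directions. Its FPKM was 93.7, 74.7 and 87.6 in RC and 104, 107 and 98.4 in RM, a difference of 0.26 (SE 0.0867, adjusted p = 0.0421). That call was lost without RC2, RC3, RM1, RM2 or RM3, with adjusted p of 0.109, 0.0857, 0.119, 0.144 and 0.0628, and with upper-quartile factors (adjusted p = 0.0889). The value was 0.16 without RC2 and 0.23 to 0.29 without RC3, RM1, RM2 or RM3. In mouse, FPKM was 20.4, 20.3 and 20.1 in MC and 14.9, 14.4 and 13.7 in MM, a difference of -0.22 (SE 0.0386, adjusted p = 1.19e-06). The difference between species was -0.47 (SE 0.0977, adjusted p = 0.000437). Psmd14, the deubiquitinase of the lid, was at 0.24 in rat (adjusted p = 0.0614). It was called there without RC1 (0.28, adjusted p = 0.0137), with library size alone (0.26, adjusted p = 0.0487) and with DESeq2 (adjusted p = 0.0475), and it was at 0.15 without RC2. Psmd3 and Psmd6, further lid subunits, were lower in mouse at -0.16 (adjusted p = 0.000349) and -0.18 (adjusted p = 0.000216).

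**Figure D4:**
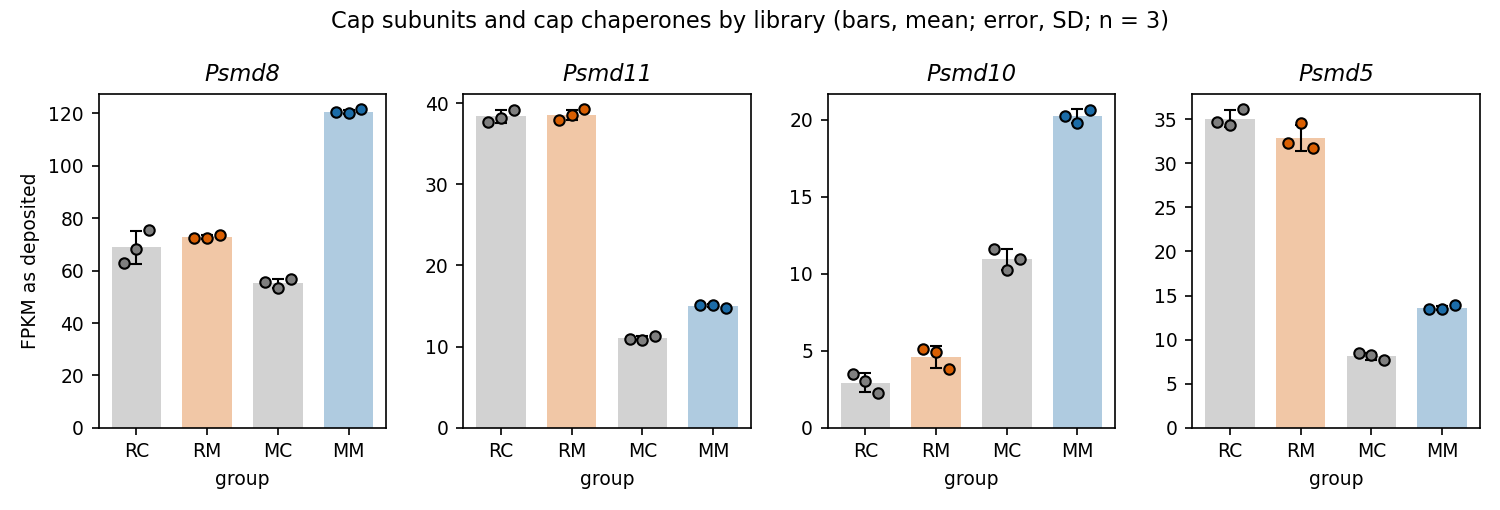
FPKM (y axis) of Psmd8, Psmd11, Psmd10 and Psmd5 in each library of the 4 groups (x axis), with points for libraries and bars for the mean and SD of 3 libraries. In mouse each model library lies above each control library for these 4 genes, as for Psmd8 at 120 to 122 against 53.2 to 56.6. This order held for 6 of the 47 tested mouse members. The share of all mouse genes with it is not given, so the count is not read as a result.

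The chaperones that help to build the proteasome split in mouse, where 2 of 7 were higher and 3 lower with TMM, and 2 and 4 with library size alone or with upper-quartile factors. The higher ones, Psmd10 and Psmd5, are chaperones of the cap's base, while Psmd9, the other base chaperone in the class, was lower at -0.28 (adjusted p = 0.000381). Psmd10 (ENSMUSG00000031429, GRCm38 chrX:140948429-140956728, minus strand), also known as gankyrin, had FPKM of 11.6, 10.2 and 11.0 in MC and 20.3, 19.8 and 20.7 in MM. Its groups did not overlap, with a difference of 1.17 (SE 0.0767, adjusted p = 1.86e-21) and a rise by a factor of 2.24. Rat Psmd10 also had higher levels in each model library, with FPKM of 3.52, 3.03 and 2.26 in RC and 5.10, 4.93 and 3.82 in RM. The rat difference of 0.63 (SE 0.247) missed the threshold (adjusted p = 0.0725) and passed it without RC1, at 0.76 (adjusted p = 0.0436), and in both limma fits on log2 FPKM (adjusted p = 0.0259 and 0.026). Without RC3 it was 0.47 (adjusted p = 0.211). The species differed by 0.55 (SE 0.209, adjusted p = 0.0298). That call was lost without RC1 (adjusted p = 0.135), RC2 (adjusted p = 0.0584), MC2 (adjusted p = 0.0596) or RM3 (adjusted p = 0.0888), with library size alone (0.25, adjusted p = 0.286) and with upper-quartile factors (0.48, adjusted p = 0.053).

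Psmd5 (ENSMUSG00000026869, GRCm38 chr2:34849734-34874968, minus strand), known to hold back assembly of the complete proteasome, had FPKM of 8.45, 8.28 and 7.69 in MC and 13.4, 13.5 and 13.9 in MM. Its groups did not overlap either, with a difference of 1.02 (SE 0.0447, adjusted p = 3.15e-30) and a rise by a factor of 2.03. In rat Psmd5 was at -0.11 (adjusted p = 0.271), and the difference between species was 1.13 (SE 0.0827, adjusted p = 2.92e-09). Psmg2, a chaperone of the α ring, fell in mouse from FPKM of 19.1, 19 and 20.1 to 8.53, 8.59 and 10.5, a difference of -0.80 (SE 0.0965, adjusted p = 4.65e-11). The rat value was -0.16 (adjusted p = 0.269), and the species differed by -0.64 (adjusted p = 0.000923). Its partner in the α-ring chaperone pair, Psmg1, was lower in mouse at -0.21 (adjusted p = 0.0262), a call lost without MC1 (adjusted p = 0.0521), MC2 (adjusted p = 0.0925), MM2 (adjusted p = 0.0539) or MM3 (adjusted p = 0.141), with DESeq2 (adjusted p = 0.0773) and without the filter (adjusted p = 0.0577). Psmg4 was at -0.13 in mouse (adjusted p = 0.287) and at -0.41 (adjusted p = 0.000916) with library size alone. EdgeR called 0 of the 7 in rat, 1 was higher and 0 lower at an unadjusted p under 0.05, and DESeq2 called 0. Rat Psmg1 was at -0.19 (adjusted p = 0.121), and it was called lower with upper-quartile factors (-0.25, adjusted p = 0.044) and without RC1 (-0.24, adjusted p = 0.0303), and it was at -0.11 without RC3.

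Proteasome factors outside the naming rule were read from a separate list, in which 7 of 14 tested genes were higher and 3 lower in mouse with TMM, 3 and 8 with library size alone, and 4 and 4 with upper-quartile factors. In rat 2 of 14 were higher and 3 lower, or 1 and 5 with upper-quartile factors. All genes tested gave 37.4% and 37.6% in mouse and 18.3% and 16.8% in rat with TMM. Zfand2a, an arsenite-inducible partner of the cap, rose by 1.60 in mouse (adjusted p = 4.47e-38) and was at -0.19 in rat (adjusted p = 0.0677), or at -0.23 (adjusted p = 0.0187) without RC1 and -0.15 without RC2. The difference between species was 1.79 (adjusted p = 6.28e-12). Nfe2l1, the transcription factor that restores proteasome genes when the proteasome is impaired, rose by 0.48 in mouse (adjusted p = 3.34e-24) and fell by 0.50 in rat (adjusted p = 0.000204), a difference between species of 0.97 (adjusted p = 1.04e-09). Ecpas, a scaffold that binds the cap, rose by 0.44 in mouse (adjusted p = 3.61e-17) and was at 0.03 in rat (adjusted p = 0.81).

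Pomp, the maturation factor of the core particle, showed how much RC1 could weigh in rat. Its FPKM was 73.0, 14.5 and 28.1 in RC and 11.5, 11.4 and 12.5 in RM, so that RC1 was far above the rest. The rat difference was -1.73 (adjusted p = 0.0146), -0.88 without RC1 and -2.12 without RC2. The call was lost without RM1 (adjusted p = 0.0594) and with limma on log2(FPKM + 1) (-1.33, adjusted p = 0.0541). In mouse Pomp was at 0.22 (adjusted p = 1.5e-05) with TMM, at -0.05 with library size alone and at 0.09 (adjusted p = 0.0687) with upper-quartile factors. The difference between species was 1.96 (adjusted p = 0.00202), and 1.09 without RC1.

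Of the genes for ubiquitin and its delivery, 10 of 16 were higher and 2 lower in mouse with TMM, where 37.4% and 37.6% of all genes tested were called, and the split was 5 and 6 with library size alone and 8 and 5 with upper-quartile factors. In rat 1 of 17 entries was higher and 3 were lower, against 18.3% and 16.8% of all genes tested. Sqstm1, the autophagy receptor p62, rose by 1.20 in mouse (adjusted p = 4.45e-45) and fell by 1.06 in rat (adjusted p = 2.7e-06), a difference between species of 2.26 (adjusted p = 2.85e-13). The polyubiquitin gene Ubb rose by 0.77 in mouse (adjusted p = 9.03e-34) and was at -0.13 in rat (adjusted p = 0.144), or at -0.18 (adjusted p = 0.0277) without RC1 and -0.10 without RC3. Ube2d3, a ubiquitin-conjugating enzyme, rose by 0.61 in mouse (adjusted p = 8.07e-26) and was at 0.19 in rat (adjusted p = 0.0522), or at 0.22 (adjusted p = 0.0141) without RC1, 0.14 without RC2 and 0.21 (adjusted p = 0.0379) with library size alone.

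Most interferon response genes were lower in mouse, as the immunoproteasome genes were. Of 14 tested there, 12 were lower and 1 was higher (13 and 1 with library size alone), where 37.6% and 37.4% of all mouse genes tested were called. Their median difference was -2.23. The summed FPKM of the list was 130, 175 and 108 in MC and 33.6, 36.9 and 30.8 in MM libraries. In rat it was 24.7, 23.5 and 22.4 in RC and 19, 21.1 and 21.1 in RM libraries. Untreated mouse cells thus had the higher sum, and the part of this starting level in the responses was not tested. Ifit3, an antiviral effector, fell by 5.08 (adjusted p = 2.58e-34), and Ddx58, the RNA sensor RIG-I, fell by 1.34 (adjusted p = 2.53e-31). Gbp2, a guanylate-binding protein gene, was the gene called higher and rose by 2.33 (adjusted p = 5.74e-33). In rat edgeR called 1 of 11 lower and 0 higher, DESeq2 gave the same counts, and so did an unadjusted p under 0.05. Rat Ddx58 was at -0.44 (adjusted p = 0.143), at -0.66 (adjusted p = 0.0244) without RC3 and at -0.26 (adjusted p = 0.346) without RC1.

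Receptors and transcription factors of the interferon and NF-κB pathways parted in mouse, where 10 of 15 were higher and 5 lower (8 and 5 with library size alone). In rat 7 of 16 were higher and 1 lower, or 6 and 3 with upper-quartile factors. With TMM, 37.4% and 37.6% of all genes tested were called in mouse, and 18.3% and 16.8% in rat. Nfkb1 rose in both species, by 1.90 in mouse (adjusted p = 2.09e-48) and 1.20 in rat (adjusted p = 4.8e-07). Nfkb2 also rose in both, by 2.09 (adjusted p = 1.48e-46) and 0.54 (adjusted p = 0.00606). Rela rose by 1.52 in mouse (adjusted p = 2.54e-41) and was at 0.03 in rat (adjusted p = 0.812), at -0.05 without RC1 and at 0.08 without RM1. Irf1, an inducer of immunoproteasome genes, fell by 0.48 in mouse (adjusted p = 1.44e-05), was at 0.09 in rat (adjusted p = 0.408) and differed between species by -0.57 (adjusted p = 0.000774).

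Markers of other cell types and of stress were read beside these results, and their part in the results was not tested. Their counts of calls also stand against 37.4% higher and 37.6% lower among all mouse genes tested and 18.3% and 16.8% among all rat genes. Of the macrophage and leukocyte markers, 3 were tested and higher in mouse (2 with library size alone), with a summed FPKM of 6.16, 6.39 and 6.77 in MC and 11.3, 13.7 and 10.9 in MM libraries. The most abundant was Cd68, a lysosomal protein gene, which rose by 1.51 in mouse (adjusted p = 2.31e-15) and by 0.92 in rat (adjusted p = 0.00121). Itgam had no count in mouse, and the pan-leukocyte gene Ptprc was at 0.00322 FPKM in MC and 0.00104 in MM. In rat 1 of 6 was higher and 3 were lower, with sums of 12.4, 15.1 and 12.9 in RC and 15.8, 10.8 and 12.7 in RM libraries. Rat Laptm5 fell by 1.61 (adjusted p = 0.00023), and Lyz2 fell by 0.87 in rat (adjusted p = 0.00851) and rose by 1.01 in mouse (adjusted p = 4.73e-05). Ptprc was at 0.0559 FPKM in RC and 0.0453 in RM.

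Endothelial markers were near 0, with sums of 0.448 to 0.793 FPKM in the mouse libraries and 0.0719 to 0.153 in the rat libraries. Vwf rose by 2.18 in mouse (adjusted p = 2.42e-14), and Tek was lower at -0.80 (adjusted p = 0.0198), a call lost without MC1 (adjusted p = 0.0657), MC3 (adjusted p = 0.0737), MM2 (adjusted p = 0.0519) or MM3 (adjusted p = 0.165) and with DESeq2 (adjusted p = 0.0642). Muscle markers summed to 4.34, 4.35 and 3.81 FPKM in MC and 0.390, 0.728 and 0.816 in MM libraries. Their most abundant gene Des fell by 3.22 in mouse (adjusted p = 3.74e-21) and Acta1 by 1.61 (adjusted p = 3.56e-05). In rat their sums were 3.19, 4.18 and 4.15 in RC and 3.07, 2.92 and 2.67 in RM, and Des was at -0.42 (adjusted p = 0.0591), -0.55 (adjusted p = 0.00971) without RC1 and -0.34 without RM3. Myod1 was at 0.239 FPKM in MC and had no count in MM.

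Fibroblast markers split in both species, with 4 of 8 higher and 4 lower in mouse (2 and 5 with library size alone, 3 and 4 with upper-quartile factors) and 3 higher and 3 lower in rat (3 and 4 with upper-quartile factors). Their summed FPKM was 3281 to 3319 in MC, 1858 to 1869 in MM, 3857 to 4354 in RC and 2889 to 3027 in RM, and Col1a1 was the most abundant. Dcn, the proteoglycan decorin, rose by 4.99 in mouse (adjusted p = 2.22e-78) and by 2.27 in rat (adjusted p = 1.85e-07). Lum, the proteoglycan lumican, rose by 2.61 in mouse (adjusted p = 2.21e-58) and by 2.01 in rat (adjusted p = 4.77e-07), and Col1a2 fell by 2.05 in mouse (adjusted p = 9.8e-64) and by 0.89 in rat (adjusted p = 0.00317). Of the apoptosis and stress genes, 6 of 8 were higher and 1 lower in mouse (6 and 2 with library size alone or upper-quartile factors), and 1 of 7 was higher and 4 lower in rat, beside those same shares of all genes. Hmox1, heme oxygenase, rose by 3.31 in mouse (adjusted p = 2.17e-66) and fell by 0.43 in rat (adjusted p = 0.00125), and Atf3, a stress-induced transcription factor, rose by 4.26 (adjusted p = 7.03e-53) and fell by 0.85 (adjusted p = 0.00145). Hspa1b, an inducible chaperone, rose by 2.49 in mouse (adjusted p = 2.07e-41) and had too few counts in rat.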

How the data were processed

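The authors sequenced RNA from 12 libraries, 3 in each of 4 groups. According to the submitters' processing notes, reads were aligned with HISAT2 to Rnor_6.0 or GRCm38 and counted with HTSeq 0.11.2. The deposited values are count per gene and FPKM. Library totals were 16841580 to 25903459 counts. The SD values and the standard errors of edgeR include variation between the libraries of a group.

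Genes passing filterByExpr were fitted in each species with edgeR 4.0.16 in R 4.3.3 (quasi-likelihood, TMM), and the difference between species on genes shared by symbol, with Benjamini-Hochberg adjustment over all genes tested. DESeq2 1.42.0, limma 3.58.1 on log2 FPKM plus 1 or 0.1, other scalings, no filter, a replicate block and leaving out each library were alternatives. Standard errors of edgeR were derived from the F statistic. The tests were also run on simulated data, and the outcome is not given here.

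Members and lists were chosen with earlier results of these data known. Genes named were all immunoproteasome, activator and tissue-specific members, the 3 with the smallest p in either species in each other class, members called against their class's majority, the 3 with the smallest p between species, up to 3 genes per list, and Pomp, Nfe2l1, Tap1, Tap2, Irf1 and Nlrc5. A further gene that the rule takes in is not reported here. Mouse positions and exons came from GENCODE M21, and rat promoters from RefSeq.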

Additional observations from a re-analysis of the deposited data

Results flagged for a closer look

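Each of the following results was singled out because the response to IL-1β differed between rat and mouse by edgeR's direct test, at an adjusted p under 0.05 over all shared genes. Values are the mouse log2 difference minus the rat one, and none of the differences is explained here.

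The immunoproteasome and its activator had lower values in mouse. They were -2.54 for Psmb9, -1.33 for Psmb8, -0.78 for Psmb10 and -0.65 for Psme2. The genes beside them in antigen processing and interferon signalling had values of -1.58 for Tap2, -1.01 for Tap1 and -0.57 for Irf1, while Nlrc5 had 1.21.

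In the core particle the values were -0.42 for Psma1, -0.46 for Psma4, -0.27 for Psma5 and 0.27 for Psma7 in the α ring. In the β ring they were -0.26 for Psmb2, 0.32 for Psmb4 and 0.34 for Psmb5. The Psma7 call was lost with library size alone (-0.03, adjusted p = 0.793), with upper-quartile factors (0.20, adjusted p = 0.0734) and without MC2 (adjusted p = 0.0508), and the Psma5 call without MC2 (adjusted p = 0.0601). The Psmb2 call was lost without MC1 (adjusted p = 0.0561) or MM1 (adjusted p = 0.055), and the Psmb5 call without RM2 (adjusted p = 0.0512). With library size alone Psmb4 was at 0.02 and Psmb5 at 0.04, and with upper-quartile factors both calls were lost (adjusted p = 0.053 and 0.0619). Without RC1, Psmb2 was at -0.17.

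In the cap the values were 0.19 for Psmc4, -0.35 for Psmc5, -0.47 for Psmd1, 0.37 for Psmd2, -0.25 for Psmd3, 0.48 for Psmd4, -0.25 for Psmd6, 1.34 for Psmd8, 0.73 for Psmd11 and -0.24 for Psmd14. The calls of Psmd2 (0.07, adjusted p = 0.349) and Psmd4 (0.19, adjusted p = 0.0539) were lost with library size alone. Psmc4 was at -0.10 with library size alone, and its call was lost without MC2, MC3, MM1 or RM2 (adjusted p = 0.0503, 0.0645, 0.054 and 0.0859), with upper-quartile factors (adjusted p = 0.183) and with the replicate block (adjusted p = 0.0617). The Psmd3 call was lost without RC1, MC1, MM1, MM2, RM3 or MM3, with adjusted p from 0.0518 to 0.0786, and the value was -0.14 without RC1. The Psmd6 call was lost without MC1, RC2, MC2, MM1, RM2, MM2 or MM3, with adjusted p from 0.0506 to 0.0963, and with the replicate block (adjusted p = 0.0626). The Psmd14 call was lost without MC1, RC2, MC2, MC3, RM1, MM1, RM2, MM2 or MM3, with adjusted p from 0.0626 to 0.114, and the value was -0.15 without RC2. It was also lost with DESeq2 (adjusted p = 0.0566), DESeq2 size factors (adjusted p = 0.0549), no filter (adjusted p = 0.0605) and the replicate block (adjusted p = 0.0644).

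Among the other members, Psme3 was at 0.26 with TMM and at -0.04 with library size alone, and its call was lost with upper-quartile factors (adjusted p = 0.0528). Assembly chaperones had values of -0.64 for Psmg2, 1.13 for Psmd5, -0.26 for Psmd9 and 0.55 for Psmd10, the last lost without RC1, RC2, MC2 or RM3 (adjusted p = 0.135, 0.0584, 0.0596 and 0.0888), with library size alone (adjusted p = 0.286) and with upper-quartile factors (adjusted p = 0.053). The Psmd9 call was lost without RC1, MC1, MC3, MM1, RM2, MM2 or RM3, with adjusted p from 0.0537 to 0.109, and with DESeq2 (adjusted p = 0.0553) and no filter (adjusted p = 0.0527). Outside the naming rule, Pomp had 1.96, or 1.09 without RC1, and Nfe2l1 had 0.97.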

How the results depend on the processing

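In mouse, Psmb8, Psmb9, Psmb10, Psme2, Psmg2, Psmc5, Psmd8, Psmd5 and Psmd11 kept their direction and their call under all 14 alternatives, and the difference between species kept both for these 9 genes under all 20. The alternatives for the counts by the study's own criteria were chosen after seeing the data. Apart from the change of scale in mouse, the cause of the changes that follow was not tested.

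In rat, members called higher numbered 1 with upper-quartile factors, 4 with DESeq2, 4 with limma on log2(FPKM + 1) and 4 on log2(FPKM + 0.1). Rat members called lower numbered 0 with library size alone, 7 with upper-quartile factors, 3 without the filter, 3 with DESeq2, 0 with either limma fit and 2 with the replicate block. Of all rat genes, DESeq2 called 18.2% higher and 16.5% lower, and the limma fits 18.3% and 18.4% higher and 15.3% and 15.4% lower. Without the filter 13.9% and 12.2% were called, and with library size alone 19.3% and 15.7%. Leaving out each library in turn gave 1 to 8 higher and 0 to 11 lower, and both upper ends came from leaving out RC1. Those fits called 12.9% to 24.1% of all rat genes higher and 11.6% to 22.4% lower.

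In mouse, members called higher numbered 6 with library size alone, 9 with upper-quartile factors and 6 with either limma fit. Members called lower numbered 35 with library size alone, and 35 and 34 with limma on log2(FPKM + 1) and log2(FPKM + 0.1). Either limma fit called 24.6% of all mouse genes higher, and 54% and 53.9% were called lower. Those past the study's criteria on the lower side numbered 5 with library size alone. Leaving out each library gave 12 to 16 higher, 18 to 21 lower, and 2 to 4 past the criteria on the lower side. Those fits called 35.7% to 36.3% of all mouse genes higher and 35.6% to 36% lower. The share of all mouse genes past the study's criteria under these settings is not given, so the counts by those criteria are not read as a result.

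For the difference between species, members more positive in mouse numbered 3 with library size alone, 5 with upper-quartile factors and 4 with either limma fit, and those more positive in rat numbered 26 with library size alone and 26 with either limma fit. Of all shared genes, the limma fits called 20.3% and 19.9% more positive in mouse and 48.9% and 49.1% more positive in rat. Leaving out each library gave 8 to 14 and 10 to 16 members, against 29.7% to 33.9% and 30.2% to 35.1% of all shared genes.

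Some gene values changed sign. With library size alone the mouse values were -0.0907 for Psma2, -0.21 for Psmb4, -0.27 for Psmb7, -0.12 for Psmb5, -0.17 for Psmc6, -0.10 for Psmc4, -0.0281 for Psme3, -0.0465 for Psme4 and -0.0547 for Pomp. The differences between species were -0.21 for Psma6, -0.25 for Psma2, -0.10 for Psmc4 and -0.0366 for Psme3. With upper-quartile factors mouse Psmb7 was at -0.13 and Psmc6 at -0.0268. With limma on log2(FPKM + 1) the mouse values were -0.0869 for Psma2, -0.21 for Psmb4, -0.26 for Psmb7, -0.11 for Psmb5, -0.16 for Psmc6, -0.10 for Psmc4, -0.0278 for Psme3, -0.0425 for Psme4 and -0.0508 for Pomp, and the differences -0.21 for Psma6, -0.24 for Psma2, -0.10 for Psmc4 and -0.0364 for Psme3. With limma on log2(FPKM + 0.1) the mouse values were -0.0902 for Psma2, -0.21 for Psmb4, -0.27 for Psmb7, -0.11 for Psmb5, -0.17 for Psmc6, -0.10 for Psmc4, -0.0287 for Psme3, -0.0452 for Psme4 and -0.0541 for Pomp, and the differences -0.21 for Psma6, -0.25 for Psma2, -0.10 for Psmc4 and -0.0377 for Psme3. FPKM hold no TMM factor, so the limma fits share the scale of library size alone.

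No pairing of libraries by replicate number was seen, though a check on 3 libraries per group cannot exclude one. Across genes, which are not independent replicates, residuals of same-numbered control and model libraries correlated at 0.0241, -0.0977 and 0.0849 in rat and at 0.00124, 0.0149 and 0.00482 in mouse, and other rat pairs ranged from -0.185 to 0.162. With a replicate block the counts were 3 higher and 2 lower in rat, 15 and 21 in mouse, and 11 and 13 between species. Of all genes, the block called 18.3% and 15.8% in rat, 37.3% and 37.5% in mouse, and 30.7% and 31.8% between species. Depth limits Psmb8 and Psmb9 in mouse, with 46 and 21 counts in the MM libraries.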
